A study of Saccharomyces cerevisiae with 7 samples.

Results

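The comparison set 2 libraries of a ppm1 deletion strain (ppm1::kanMX) against 2 libraries of wild type, both grown in YPL, a rich medium with lactate (2%) as the carbon source beside yeast extract (1%) and peptone (2%), and collected in log phase at an OD600 of about 1.0. These 4 of the 7 libraries of the series were taken by strain and medium, and every Rph1 peak of the deposited table was described, 699 internal peaks and the 32 outermost peaks of the chromosome arms. Every strain was CEN.PK, MATa, and both strains compared here carried RPH1-HA-HYG, an HA epitope tag on Rph1, so the wild type is tagged too. Immunoprecipitation was against that tag, and no input or untagged library was used here. The remaining 3 libraries were wild type 1 h after a switch to the synthetic lactate medium SL (2) and a strain with tagged Rph1 S412A in YPL (1). All 3 were in the fit and are given beside the results they touch. The SL libraries entered the estimate of the spread, to which the single S412A library adds no degree of freedom. S412A is an alanine in place of the serine at that position of Rph1. Nothing in the labels tells whether replicates came from separate cultures or transformants. A p-value here therefore reflects library-to-library spread alone, which may be technical.

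Rph1 is a JmjC-domain demethylase that removes methyl groups from histone H3 and reaches DNA through zinc fingers. Ppm1 is a methyltransferase that uses S-adenosylmethionine to methylate the carboxyl end of the catalytic subunits of the phosphatase PP2A, and this methylation bears on which regulatory subunits join the enzyme. The title of the series ties demethylation of PP2A to demethylation of histones, and the comparison asks where Rph1 sits on chromatin when Ppm1 is missing. The check of the deletion at its own locus was not analysed here, because the table names no genes and its positions are on the build sacCer2, for which no annotation was used. Peaks are therefore named by chromosome and position.

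Signal is the deposited value of a peak, which reads as reads in the peak scaled to a library of 22000000. On that reading the ppm1 libraries held 22594042 and 34820208 reads, against 15445453 and 19258711 in the wild-type libraries. The fewest implied reads in a peak in any of the 4 libraries were 1196, a counting error of 2.89%. The peaks together spanned 2163 kb. Of the implied reads 22.6% and 20.0% lay in peaks in the ppm1 libraries, against 21.7% and 22.9% in the wild-type libraries. The ppm1 mean was 21.3% ± 1.88 and the wild-type mean 22.3% ± 0.892 (SD, n = 2 each), a difference of -0.998 percentage points that is smaller than the SD of the ppm1 libraries (exact permutation p = 0.667, two-sided, the smallest possible p being 0.333). For the shallowest of the 4, wild-type library 1, the Wilson 95% interval of the share was 21.64% to 21.68%, far narrower than the spread between libraries.

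Without Ppm1 the deposited signal of most peaks stayed near that of wild type, and a small number were much lower. No input was used here, so the part of background in this signal is not known. An unchanged value, above all at a low peak, therefore need not mean that bound Rph1 was kept. The median log2 change over all peaks (ppm1 over wild type) was -0.01, 345 peaks lay above 0 and 386 below, and 14 moved by more than 0.5 in either direction. From the 5th to the 95th percentile the log2 changes ran from -0.33 to 0.14. The lower tail was thus longer than the upper one, with extremes of -1.01 and 0.45. The medians of single library pairs ran from 0.08 for ppm1 library 1 over wild-type library 1 to -0.13 for ppm1 library 2 over wild-type library 2. The library medians of the groups overlapped (exact permutation p = 1, two-sided), so a difference in overall level was not detectable between 2 and 2 libraries.

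**Figure D1:**
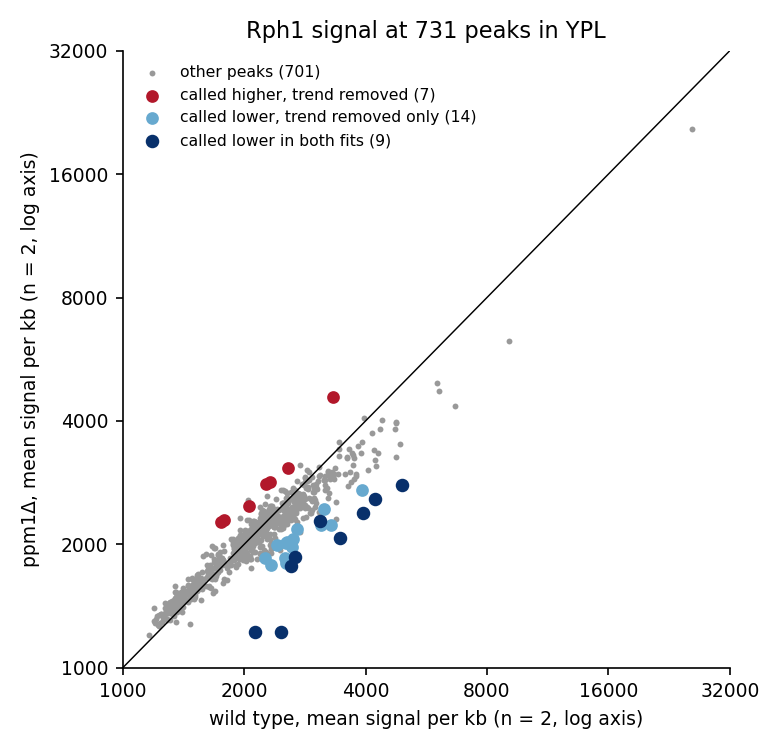
Mean Rph1 signal per kb of every peak in the ppm1 deletion (vertical axis, n = 2) against wild type (horizontal axis, n = 2), both log axes, with the line of equal signal. Most peaks follow the line, the 9 dark blue peaks, called lower as deposited and with the trend removed, lie below it, and 2 of these stand at the bottom of the plot.

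With the values as deposited, limma's moderated test over all 7 libraries called 9 peaks lower in the ppm1 deletion (1.23%) and 0 higher (0%) at a Benjamini-Hochberg adjusted p under 0.05; at an unadjusted p under that threshold, 41 were lower and 4 higher. The groups did not overlap at any of the 9, where over all peaks they did not overlap at 35.4%. The peak on chromosome XVI from 191854 to 195645 held 4582 and 4699 in the ppm1 libraries, against 8875 and 9825 in the wild-type libraries. Per kb this was 1208 and 1239 in ppm1, against 2341 and 2591 in wild type. The site ranked 730th by signal per kb, 1 from the last, in both ppm1 libraries, while it ranked 238th and 202nd in the wild-type libraries. An ordinary peak of wild type thus stood at the bottom of the table in the mutant (log2 -1.01, SE 0.16, limma adjusted p = 2.58e-07).

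A peak on chromosome XI from 112600 to 114812 was likewise low in the mutant. It held 2613 and 2810 in the ppm1 libraries, against 4692 and 4713 in the wild-type libraries. By signal per kb it ranked last and 725th in ppm1, against 360th and 399th in wild type (log2 -0.80, SE 0.12, limma adjusted p = 1.00e-07). At 1181 and 1270 per kb in ppm1 it lay below the 5th percentile of all peaks in those libraries, 1393 and 1368 per kb. Neither was among the tall peaks of wild type.

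The other 7 called peaks kept more signal per kb, with log2 changes of -0.44 to -0.83. The XIII peak from 539853 to 541349 had 3042 and 3175 in ppm1, against 4776 and 5574 in wild type, and its rank per kb was 459th and 266th in ppm1, against 49th and 41st in wild type. The IX peak from 426875 to 428184 had 2292 and 2359 in ppm1, against 3538 and 3318 in wild type. The XVI peak from 678348 to 680319 had 4883 and 4533 in ppm1, against 7041 and 8521 in wild type. In these 3 peaks the lowest wild-type library stood well above the highest ppm1 library. The IV peak from 975812 to 977992 had 4103 and 4029 in ppm1, against 5548 and 6123 in wild type. The XV peak from 831886 to 833188 had 3195 and 2756 in ppm1, against 3923 and 4104 in wild type. Both of the tallest called peaks, on XIV and VII, were also wide. The XIV peak from 557240 to 561414 had 12450 and 10817 in ppm1, against 20021 and 21194 in wild type, and the VII peak from 621688 to 626965 had 14624 and 12610 in ppm1, against 20098 and 24383 in wild type. The count rests on every library. It was 0 without ppm1 library 1, 1 without ppm1 library 2, 4 or 2 without wild-type library 1 or 2, and 24 or 23 without SL library 1 or 2. Leaving out an SL library lowered the median SD of the fit to 0.12, against 0.14 with all 7. With only the 4 libraries of the comparison 1 peak was higher and 20 lower, with median-centred libraries 4 and 29, and with quantile normalization 13 and 33. All 9 remained called under each of these last 3 settings.

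Beyond single sites, the change followed the height of the peak. Height was taken as the mean log2 signal per kb over the 4 libraries, so that both groups weigh equally in it. In the lowest of 4 equal classes of height (183 peaks, 1182 to 1703 per kb) the median log2 change was 0.07, and 158 of the 183 lay above 0. In the next 2 classes the medians were -0.01 and -0.04. In the highest class (183 peaks, from 2481 per kb) the median was -0.13, and 152 lay below 0. On average over the libraries, tall peaks were lower and low peaks slightly higher in the ppm1 deletion. Median signal per kb in the highest class was 2939 and 2465 in the ppm1 libraries, against 2827 and 3033 in the wild-type libraries, so the groups overlapped there.

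The tilt also differed between replicates of each group. The slope of each library's log2 deviation from the mean of the 4 on height was -0.02 and -0.18 in the ppm1 libraries, against 0.03 and 0.17 in the wild-type libraries. Both ppm1 slopes lay below both wild-type slopes, and the difference of the means was -0.20. The pooled SD between replicates was 0.11. The exact permutation p was 0.333 (two-sided), the smallest that 2 libraries against 2 allow, so this design could not have passed 0.05 (Benjamini-Hochberg adjusted p = 1 over the 3 library measures tested). The pair ppm1 library 1 over wild-type library 1 had a slope of -0.05, whereas ppm1 library 2 over wild-type library 2 had -0.35. With height taken from the SL and S412A libraries, which do not enter the change, the difference was -0.10, and with height as signal per peak in place of per kb it was -0.05. The library with the lowest slope, ppm1 library 2, had the lowest share of implied reads in peaks (20.0%), and that with the highest slope, wild-type library 2, the highest (22.9%). The library 1 pair did not follow that order, with a share of 22.6% in ppm1 and 21.7% in wild type. The part of the share in the trend was not tested.

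**Figure D2:**
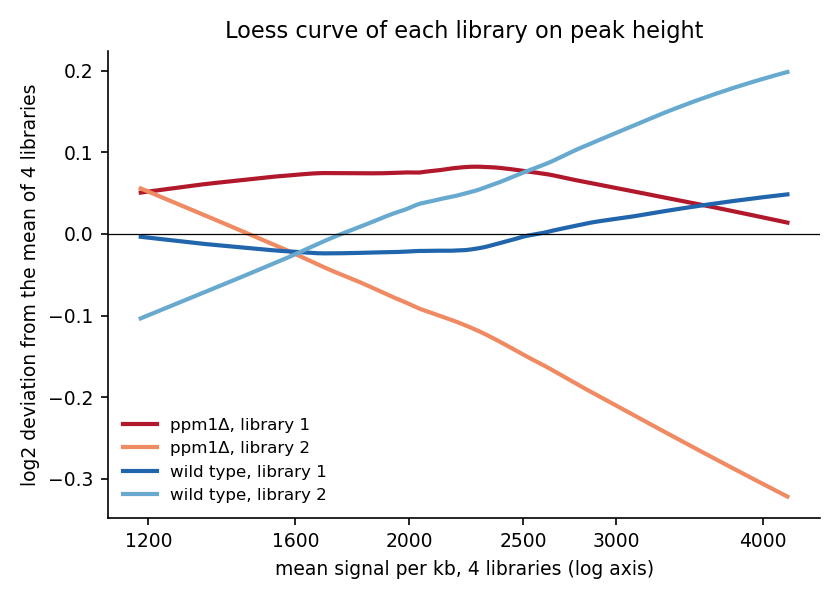
Loess curves of each library's log2 deviation from the mean of the 4 libraries (vertical axis) on mean signal per kb (horizontal log axis), drawn up to the 99th percentile of height. The ppm1 library 2 curve ends lowest (-0.33) and the wild-type library 2 curve highest (0.20), while both library 1 curves stay within 0.1 of 0.

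To describe sites apart from this tilt, a loess curve on height was subtracted from each library, which leaves the height-adjusted signal. The curve difference, ppm1 minus wild type, was 0.08 at the 5th percentile of height, -0.02 at the median, -0.19 at the 95th percentile and -0.28 at the 99th. It held 28.2% of the variance of the log2 change over peaks. Removing it narrowed the spread over peaks of the difference between replicates, a measure that leaves out the mean offset between them. Per library the SDs were 0.05 in ppm1 and 0.05 in wild type, against 0.07 and 0.07 in the values as deposited. The median SD of the limma fit was 0.07 with the trend removed and 0.14 as deposited. Only the fit as deposited keeps the offset, because each curve takes out the level of its library as well as the tilt. With median-centred libraries and no curve the median SD was 0.0861, so removal of the tilt alone does not account for the drop. As each library had its own curve subtracted, some narrowing is built in. The correlation of the change with height, a description over peaks that share these libraries, was 0.01 after removal, against -0.52 as deposited. The curves were fitted on that same height in these libraries, so the low value follows from the removal itself.

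**Figure D3:**
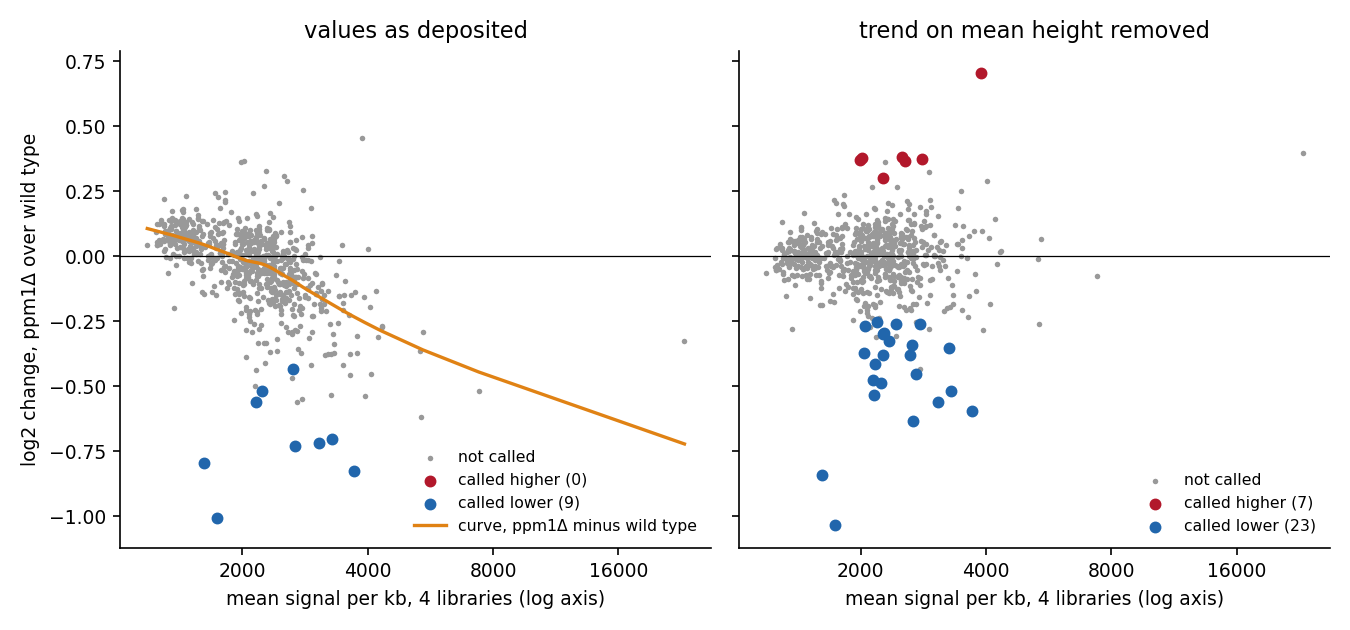
Log2 change of each peak, ppm1 over wild type (vertical axis), against mean signal per kb (horizontal log axis), as deposited (left, with the curve difference in orange) and with the trend removed (right). The left panel slopes downward and has 9 called peaks, all lower. The right panel is level, as the curves were subtracted, and has 23 called lower (blue) and 7 called higher (red).

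With the trend removed, limma called 30 peaks (4.10%), 23 lower (3.15%) and 7 higher (0.958%). At an unadjusted p under 0.05 there were 68 lower and 38 higher. The 9 peaks of the values as deposited were all among the 23. At each of the 30 the groups did not overlap, before or after removal of the trend, and each had the same direction in both. Over all peaks 59.2% did not overlap after removal, 30.2% higher and 29.0% lower, so separation of the libraries alone was common. Of all peaks 558 had the same sign in both analyses.

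The deepest losses were the same XVI and XI sites. Height-adjusted signal at the XVI peak from 191854 to 195645 was 4352 and 4856 in the ppm1 libraries, against 9022 and 9840 in the wild-type libraries (log2 -1.04, SE 0.08, limma adjusted p = 3.0e-04), or 0.488-fold. Among the named peaks it was the only one called under each of the 20 alternatives tried with the trend removed. Its ppm1 signal per kb was near the lowest of all peaks and no input was used, so the fold cannot be read as the share of bound Rph1 left. The XI peak from 112600 to 114812 stood at 2485 and 2863 in ppm1, against 4765 and 4787 in wild type (log2 -0.84, SE 0.11, limma adjusted p = 0.0052). Removal of the trend hardly moved either of them. The XIV peak from 557240 to 561414, ranked 19th by height, moved more. Adjusted, it held 12191 and 13146 in ppm1, against 19490 and 18771 in wild type (log2 -0.60, against -0.83 as deposited).

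Several losses passed in the main fit with the trend removed and not in the main fit of the values as deposited. Some of them also passed without a curve under other settings. With median-centred libraries and no curve 29 peaks were called lower, the II peak from 133469 to 138284 among them. That peak passed with quantile normalization too. The part of the tilt in these calls was not tested. Among the losses that passed in the main fit with the trend removed alone, the XVI peak from 296420 to 300843 held 10443 and 9331 in ppm1, against 13756 and 15388 in wild type. Its adjusted signal was 9955 and 10536 in ppm1, against 13689 and 14396 in wild type (log2 -0.45, limma adjusted p = 0.0052). On XV the peak from 881651 to 884663 held 5533 and 5312 in ppm1, against 7427 and 7914 in wild type, a log2 change of -0.48 once adjusted. The II peak from 133469 to 138284, with a log2 change of -0.53 as deposited and -0.35 adjusted, held 14345 and 11855 in ppm1, against 17729 and 20105 in wild type. At these sites the lowest wild-type library stood above the highest ppm1 library. Chromosome XI gave the peaks from 381349 to 384650 (log2 -0.37) and from 354657 to 358042 (-0.38), and XVI the peak from 39995 to 43601 (-0.41). The 8 lower peaks beyond the 15 of smallest p had log2 changes of -0.25 to -0.38.

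Gains appeared at 7 sites, all of which were above wild type in the values as deposited too. The largest was on chromosome VII from 882015 to 884787. It held 14078 and 11256 in the ppm1 libraries, against 8684 and 9717 in the wild-type libraries. After adjustment the libraries of each group lay close together, with 13842 and 13823 in ppm1, against 8432 and 8551 in wild type, a rise of 1.63-fold (log2 0.70, SE 0.07, limma adjusted p = 0.0015). As deposited its change was 0.45 on the log2 scale and did not pass (limma adjusted p = 0.490). By signal per kb it ranked 5th in both ppm1 libraries, against 57th and 50th in the wild-type libraries. This site was thus higher in the mutant in a height class where 152 of 183 peaks were lower.

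The remaining 6 gains were smaller, with log2 changes of 0.30 to 0.38 after adjustment. The IV peak from 507087 to 510020 held 9082 and 7436 in ppm1, against 6489 and 6782 in wild type. The VIII peak from 450668 to 453770 held 7541 and 6695 in ppm1, against 5381 and 5656 in wild type. The I peak from 70512 to 73836 held 8198 and 6846 in ppm1, against 5918 and 5740 in wild type. At these 3 sites ppm1 library 1 was the higher of the mutant libraries, and its adjusted values lay closer to library 2. The XI peak from 325359 to 328896 had 12024 and 9743 in ppm1, against 8830 and 9338 in wild type. On XII, the peak from 231377 to 235390 had 12175 and 10573 in ppm1, against 9157 and 9432 in wild type, and that from 727866 to 731011 had 8298 and 7325 in ppm1, against 6236 and 6714 in wild type. The last of these was the weakest call (log2 0.30, limma adjusted p = 0.0486).

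**Figure D4:**
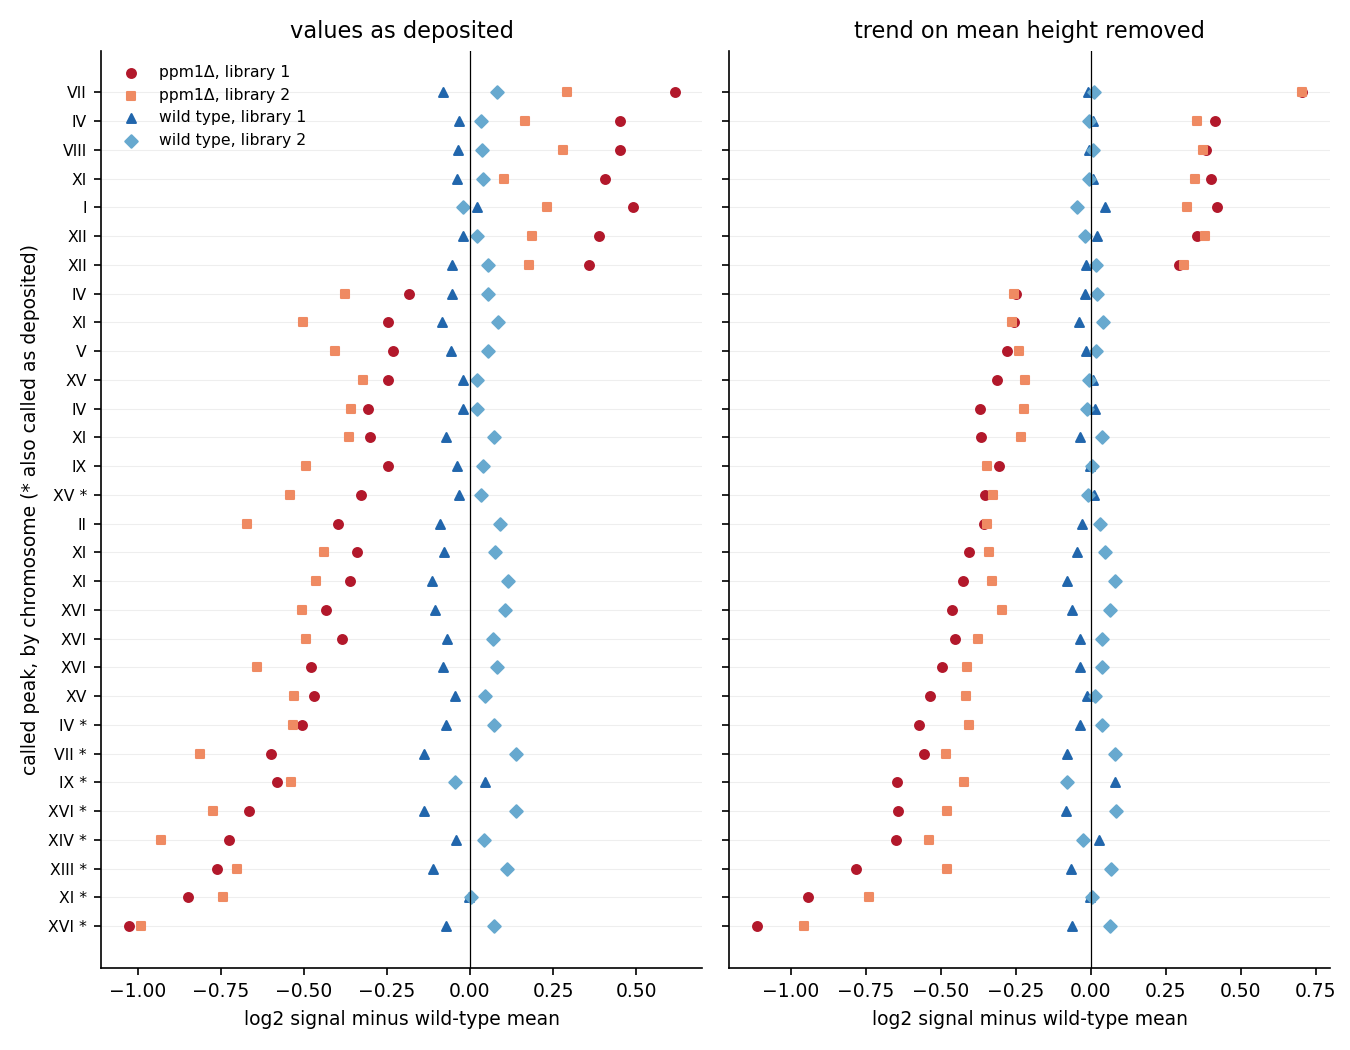
Each of the 30 peaks called with the trend removed, by chromosome, with the log2 signal of the 4 libraries relative to the wild-type mean (horizontal axis), as deposited (left) and adjusted (right). In every row both ppm1 libraries (red circles, orange squares) lie on one side of both wild-type libraries (blue triangles and diamonds), and a star marks the 9 peaks also called as deposited.

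The count with the trend removed also rests on which libraries enter. It was 5 without ppm1 library 1, 12 without ppm1 library 2, and 1 without either wild-type library, the XVI peak from 191854 to 195645 in both cases. Without SL library 1 or 2 it was 150 or 144, and with only the 4 libraries of the comparison 147 (61 higher and 86 lower), each including all 30. With height from the SL and S412A libraries it was 111, 45 higher and 66 lower. The median SD was 0.04 in the fit of 4 libraries, against 0.07 in that of 7.

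Just short of the threshold after adjustment stood the IV peaks from 70114 to 74805 (log2 -0.24, limma adjusted p = 0.0520), from 1506595 to 1510455 (-0.43) and from 38025 to 42781 (-0.23), the VII peak from 383144 to 389477 (-0.28) and the XII peak from 908948 to 911569 (-0.24). On the side of higher signal were the XVI peak from 699723 to 702673 (0.29), the XV peak from 27253 to 34173 (0.25), the IV peaks from 555197 to 557203 (0.36) and from 598591 to 602805 (0.32), and the X peak from 119096 to 123420 (0.21). The limma adjusted p of these 10 ran from 0.0520 to 0.112. In the values as deposited the next 5 by p on the lower side had limma adjusted p of 0.0888 to 0.193. Among them the XVI peak from 643761 to 647151 had a log2 change of -0.62 (limma adjusted p = 0.0984), with 16181 and 13302 in ppm1, against 20599 and 24607 in wild type. Its change was -0.26 once adjusted. The chromosome-end peaks on IV from 1 to 1225 (log2 -0.45 as deposited, -0.19 adjusted) and on XV from 1 to 1209 (-0.38 and -0.15) did not pass in the 7-library fits, and in both the libraries of the groups overlapped. At the IV end the libraries held 4914 and 3711 in ppm1, against 4770 and 7167 in wild type.

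None of the 10 tallest peaks per kb was called in the 7-library fit of either analysis, but some passed under alternatives. With only the 4 libraries compared, 3 passed as deposited, all lower, the III and IV end peaks (limma adjusted p = 0.0218 and 0.00718) and the XVI peak from 643761 to 647151 (0.0131). The last of these passed under 7 of 16 alternatives as deposited and 11 of 20 with the trend removed. With height from the SL and S412A libraries 6 of the 10 passed, all lower. As deposited all 10 were lower in the ppm1 deletion, with log2 changes of -0.13 to -0.62, where 386 of all peaks were lower. Adjusted, the X peak from 525561 to 527502 was at 0.02, the XIV peaks from 628228 to 634839 and from 499080 to 501544 at 0.02 and -0.03, the XVI peak from 430771 to 434815 at -0.01, the XIII peak from 267219 to 268840 at 0.07 and the III end peak from 1 to 1616 at -0.07. The VII peak from 478823 to 485350 was at 0.14. When the curve was drawn another way, the sign changed at the X, XIII and VII peaks and at the XIV peak from 628228 to 634839, and did not change at the other 3. The tallest peak of all, on XII from 488758 to 490971, held 42395 and 49064 in ppm1, against 54324 and 60110 in wild type (log2 -0.33, limma adjusted p = 0.482). At 23058 per kb it stands alone beyond the next height of 7390 per kb, and the curve there did not follow this peak. In ppm1 library 2 the curve stood at -0.83, and subtracting it raised 49064 to 87198. Its adjusted values, 50320 and 87198 in ppm1 against 51005 and 49604 in wild type, are not read as a change (limma adjusted p = 0.475). Without ppm1 library 1 the adjusted log2 change of this peak was 0.9986. That value rests on ppm1 library 2 alone and is not read as a change either.

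Called peaks were spread over the genome. The 23 lower peaks lay on 10 chromosomes and the 7 higher on 6, and none was the outermost peak of a chromosome arm, of which there are 32. At the 4.10% called over all peaks, very few of 32 would be called, so this does not set the end peaks apart. Those end peaks had a median log2 change of -0.00 as deposited and 0.03 adjusted. Among internal peaks 17 of the 224 with a width of 3.2 kb or more were called after adjustment (7.59%), against 8 of the 273 from 2 to 3.2 kb (2.93%), 5 of the 202 below 2 kb (2.48%) and 4.10% of all peaks. Wide peaks hold more reads, and the part of depth in this was not tested. By height 13 of the 183 in the highest class were called (7.10%), 11 of 182 in the third (6.04%), 5 of 183 in the second (2.73%) and 1 of 183 in the lowest (0.546%).

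Chromosome XI stood lowest of the 16. Its 39 peaks had a median log2 change of -0.08 as deposited and -0.07 adjusted, with 29 of 39 below 0 after adjustment, against 359 below and 372 above over the genome. On the other chromosomes the adjusted medians ran from -0.02 to 0.03. It also held 6 of the 30 called peaks, 5 lower and 1 higher (15.4% of its peaks, against 4.10% overall). The chromosome was singled out after its values were seen, and no test was made. Its medians for single library pairs were 0.03 and -0.04 for ppm1 library 1 and -0.15 and -0.24 for ppm1 library 2, below the all-peak medians of 0.08, 0.05, -0.07 and -0.13 for the same pairs. By count XVI followed with 5 called peaks of 67, all lower. Its share (7.46%) was below those of I (8.33%) and IX (7.69%).

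**Figure D5:**
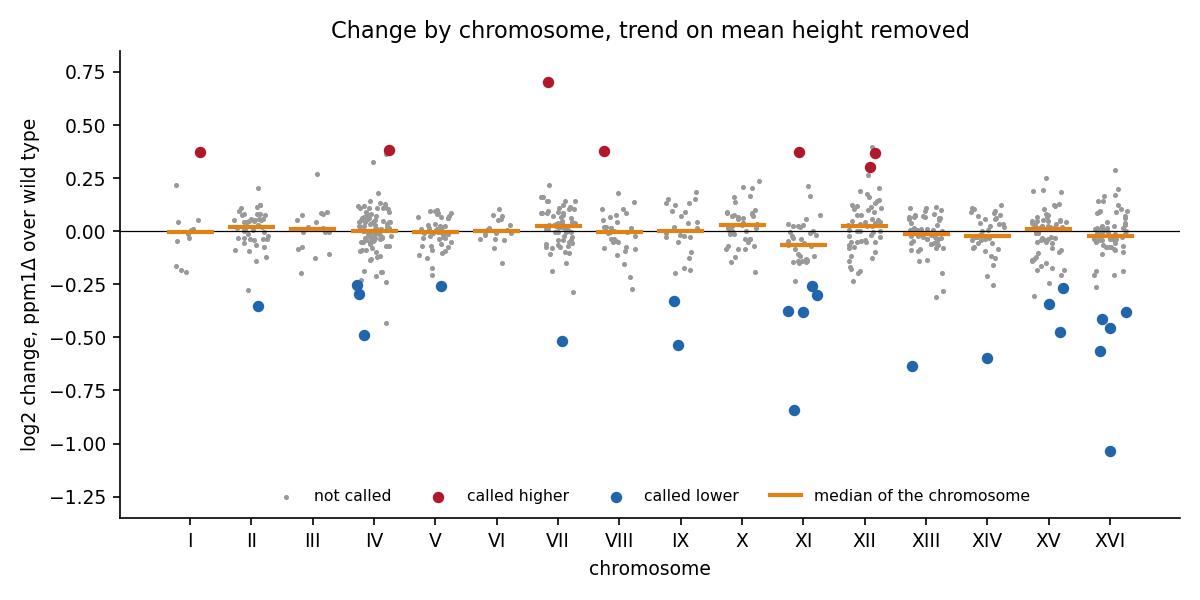
Log2 change with the trend removed, ppm1 over wild type (vertical axis), for every peak by chromosome, with the median of each chromosome in orange. Chromosome XI has the lowest median (-0.07) and 5 called lower peaks, whereas the medians of the other 15 lie between -0.02 and 0.03.

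Changes of neighbouring peaks showed little relation. Over 715 pairs of adjacent peaks on a chromosome the correlation of their adjusted log2 changes was 0.01, given as a description. In 3 pairs both neighbours were called. The XI peaks from 88978 to 94135 and from 112600 to 114812, 18.5 kb apart, were both lower (log2 -0.30 and -0.84). The XV peaks from 881651 to 884663 and from 907961 to 913047, 23.3 kb apart, were both lower as well (-0.48 and -0.27). The XI peaks from 325359 to 328896 and from 354657 to 358042, 25.8 kb apart, went opposite ways (0.37 and -0.38).

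The same sites are set beside wild type in SL and S412A, which are compared with the same wild-type YPL libraries, so likeness between these changes is no separate evidence. In SL all 23 lower sites lay below wild type in YPL, with a median log2 change of -0.60 against -0.09 over all peaks, and 19 passed (36.7% of all peaks were called lower in SL). In S412A all 23 lay below as well, with a median of -0.66 against -0.25 over all peaks, and 19 passed (17.5% of all peaks called lower). With the trend removed, 20 of the 23 lay below 0 in SL (median -0.25, 14 called lower and 1 higher, where 37.2% and 30.5% of all peaks were called), and all 23 lay below 0 in S412A (median -0.29, 9 called lower, where 1.23% of all peaks were).

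The 7 higher sites read differently in S412A in the values as deposited and with the trend removed. As deposited, in SL all 7 lay above wild type in YPL, by log2 0.02 to 0.83, and 3 passed (23.3% of all peaks called higher). In S412A, where most peaks lay below wild type, 6 of the 7 lay below, with log2 changes of -0.28 to 0.00, and none passed (1.92% called higher). With the trend removed, all 7 lay above wild type in YPL in both. In SL the median was 0.57 (0.40 to 1.28) and all 7 passed (30.5% of all peaks called higher). In S412A the median was 0.24 (0.20 to 0.60) and 1 passed, the VII peak from 882015 to 884787 (2.74% called higher).

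The deposited values of single sites are set side by side. At the XVI peak from 191854 to 195645 the S412A library held 4664 and the SL libraries 6959 and 6248, beside 4582 and 4699 in ppm1 and 8875 and 9825 in wild type. The mutants thus stood together at the bottom, with SL between them and wild type. At the XI peak from 112600 to 114812 the S412A library held 2868 and the SL libraries 2919 and 3092, close to the 2613 and 2810 of ppm1, and all 5 lay below the 4692 and 4713 of wild type in YPL. At the VII peak from 882015 to 884787 the SL libraries held 19037 and 12462, beside 14078 and 11256 in ppm1, whereas the S412A library, with 8291, stood near the 8684 and 9717 of wild type in YPL. With the trend removed, the S412A change at this site was 0.60 on the log2 scale (limma adjusted p = 0.0025) and the SL change 1.28, beside 0.70 in ppm1. The VIII peak from 450668 to 453770 likewise had 11519 and 8361 in SL and 5510 in S412A, against 5381 and 5656 in wild type. The IV peak from 1506595 to 1510455, short of the threshold in ppm1, differed in direction from SL. It held 9777 and 8060 in ppm1 and 24922 and 15983 in SL, against 12144 and 13911 in wild type in YPL.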

How the data were processed

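Peak signal was deposited by the authors as 1 table of 731 peaks in 7 libraries. Reads were aligned with Bowtie2 to sacCer2, per the submitters' processing notes, while the sources used here do not name the peak caller, the read filters or any input. Within each library 100% of values were whole multiples of a single step (tolerance 0.001), the step being 22000000 divided by a whole number, taken as the library total. That reading comes from the values alone, and no count model was used. Scaling to the library total leaves differences in the share of reads in peaks in place, and no spike-in was available. Intervals and counting errors cover counting only.

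Log2 signal (pseudocount 0) was tested with limma 3.58.1 in R 4.3.3 (eBayes with trend, Benjamini-Hochberg over 731 peaks, threshold 0.05), in 1 fit of all 7 libraries by group with 3 residual degrees of freedom, the single S412A library being assumed to vary like the other groups. The second analysis first subtracted from each library a loess curve (span 0.5, degree 1) of its deviation on mean log2 signal per kb over the 4 libraries compared. The prior degrees of freedom were infinite as deposited, so the spread there was wholly pooled over peaks. A small limma p as deposited therefore does not measure how well the replicates agreed at that peak. With the trend removed the prior degrees of freedom were 5.65, so spread at a peak was mostly pooled. Single values over libraries used exact permutation tests (scipy 1.17.1). Named are called peaks up to 15 per direction and analysis, the next 5 by p, and the 10 tallest per kb. Members, rules and tests were chosen with earlier results of these data known. Alternatives covered scaling, curve, filter, libraries and pairing.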

Additional observations from a re-analysis of the deposited data

How the results depend on the processing

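As deposited, 9 peaks were called, and 0 to 24 when a library was left out. The count was 21 with only the 4 libraries compared, 33 with median-centred libraries, 46 with quantile normalization, and 6 to 13 under the other alternatives without a block. With the trend removed, 30 were called, and 1 to 150 when a library was left out. The count was 147 with only the 4 libraries compared, 111 with height from the SL and S412A libraries (chosen after seeing the data), and 24 to 43 under the other alternatives without a block. None of the named called peaks changed sign under any alternative run. The cause of these shifts was not tested.

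Replicate numbers did not pair the libraries: differences between replicates correlated over peaks at -0.44 between ppm1 and wild type as deposited and 0.04 with the trend removed. With the number as a block, 8 (6 libraries) and 7 (4 libraries) peaks were called as deposited, and 25 and 198 with the trend removed. A crossed pairing, added after seeing the data, called 78 as deposited and 165 with the trend removed.

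The median log2 change ran from -0.098 without ppm1 library 1 to 0.069 without ppm1 library 2. The slope on height was -0.053 with signal per peak as height, and the share of reads in peaks differed by -2.33 to 0.331 percentage points when a library was left out.

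All 33 changes of sign among 1536 comparisons were at 11 values of uncalled peaks. As deposited, the VII peak at 478823 was 0.060 with quantile normalization and -0.28 to 0.0088 with a library left out, the XV peak at 27253 was -0.16 to 0.24, and the XVI peak at 699723 -0.16 to 0.21. With the trend removed and a library left out, the III peak at 1 ran from -0.31 to 0.092, the XV peak at 1 from -0.37 to 0.028, the XVI peak at 430771 from -0.085 to 0.071, the X peak at 525561 from -0.018 to 0.048 and the XIV peak at 628228 from -0.026 to 0.054. With height as signal per peak the X, XII, XIII and XIV peaks at 525561, 488758, 267219 and 628228 were -0.23, -0.11, -0.24 and -0.11, and with cyclic loess -0.23, -0.13, -0.25 and -0.14, the VII peak at 478823 then being -0.0014. With height from the SL and S412A libraries the X, XIII and XIV peaks were -0.22, -0.21 and -0.22 and the VII peak -0.070, of which X and XIII then passed (adjusted p 0.0276 and 0.0285), as did the tall peaks at IV 1, XIV 499080, XVI 430771 and XVI 643761. Without outermost peaks the X and XIV peaks were -0.0082 and -0.0034, with height over 7 libraries -0.014 and -0.0099, with a straight line -0.024 and -0.019, with span 0.3 the X peak was -0.00099, and with the pseudocount of 487 the XIV peak was -0.0084.

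The planned count models were not run. The values were whole multiples of a step, but that a step is 1 read was inferred from the values alone. With 2 libraries a group, no exact test over libraries can pass 0.05, and the fits borrow their spread from other peaks and from the SL libraries.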
